A study of Mus musculus with 18 samples.

Results

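The lysosome and autophagy genes described here are 38 mouse genes, 23 of the lysosome and 15 of autophagy. A gene was measured where at least 1 probe set carried its symbol alone in the platform annotation, and the mean of those probe sets was its value on each array. By this rule 37 of the 38 genes were measured, all 23 lysosomal genes and 14 autophagy genes, with 95 probe sets among the 18193 genes measured in all. Optn was not analysed here.

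The arrays held RNA of dopamine neurons cut out by laser from the ventral tegmental area (VTA) and the substantia nigra (SN) of adult C57Bl/6 hTH-GFP transgenic mice. MPTP, a toxin whose metabolite enters dopamine neurons through the dopamine transporter and blocks mitochondrial complex I, was given at 4 mg/kg. Both regions were sampled after 2 days of MPTP, after 10 days of MPTP and after 10 days of saline, which made 6 groups of 3 arrays. All mice, the saline controls included, carried the hTH-GFP transgene (GFP from a human tyrosine hydroxylase promoter) and lived alone for 9 weeks; brains were taken 7 days after the final dose. Saline ran for 10 days only, so the 2 day groups differed from their controls in the number of injections as well. The sample descriptions call the controls untreated. The labels count the replicates as biological but do not say which mice gave which array, so SN and VTA arrays may share mice.

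Lysosomes are acidic organelles in which hydrolases break down proteins, glycans and lipids, and neurons depend on them because they cannot dilute waste by dividing. Autophagy feeds them: the ULK kinases and a lipid kinase complex with Beclin start a membrane sheet, an E1-like and E2-like enzyme cascade attaches proteins of the ATG8 family to it, and receptors such as p62 tie cargo to ATG8. The transcription factor TFEB raises the expression of many genes of both kinds through the CLEAR element, a short palindrome built on CACGTG. Inherited defects in several of these genes cause storage diseases of the brain, and lysosomal function is a recurrent theme in the genetics of Parkinson disease.

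Promoters of the measured genes were searched for CLEAR core motifs because TFEB is a known regulator of such genes. The members were chosen by function, and the shares below were not tested. RefSeq promoter windows of the GRCm38.p6 build, 250 bases before to 50 bases after the start site, were given for 31 measured members, 20 lysosomal and 11 autophagy genes. CACGTG was present in 12 of the 31 windows (38.7%), against 8.09% of all 27025 genes with such a window. The longer palindrome TCACGTGA, which contains CACGTG, was present in 7 members (22.6%) and in 1.12% of all genes. The form GTCACGTGAC, which contains both, was in 0 members and in 0.37% of all genes. All 3 motifs read the same on both strands. The 7 members with TCACGTGA are printed here on the strand of the gene, 5′ to 3′, with the palindrome in capitals.
Ctsa: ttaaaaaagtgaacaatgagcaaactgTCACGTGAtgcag
Ctsd: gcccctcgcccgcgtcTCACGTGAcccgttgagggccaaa
Gla: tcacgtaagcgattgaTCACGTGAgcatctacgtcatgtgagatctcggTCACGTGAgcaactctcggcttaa
Atp6v0d1: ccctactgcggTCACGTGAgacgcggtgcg
Atp6v1a: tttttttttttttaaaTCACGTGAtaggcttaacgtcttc
Mcoln1: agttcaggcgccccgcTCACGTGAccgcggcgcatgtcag
Atg3: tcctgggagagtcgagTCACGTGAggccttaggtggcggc

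The stretches lie at chr2:164833733-164833772 (plus strand, Ctsa), chr7:142387903-142387942 (minus strand, Ctsd), chrX:134601177-134601249 (minus strand, Gla), chr8:105566050-105566079 (minus strand, Atp6v0d1), chr16:44139368-44139407 (minus strand, Atp6v1a), chr8:3500457-3500496 (plus strand, Mcoln1) and chr16:45158741-45158780 (plus strand, Atg3). Gla, which encodes alpha-galactosidase A, holds 2 copies, beginning 228 and 195 bases before the start site. Ctsa, which encodes the protective protein cathepsin A, holds a copy 13 bases before the start site and another that begins at base 5 after it, outside the stretch printed. In the other 5 genes a single copy begins between 132 and 4 bases before the start site. A match is a description of these letters and not a measured site of TFEB binding.

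The deposited values are log2 RMA signals that had been centred, so that each probe set has a median of 0 over the 18 arrays. Values below are on this centred log2 scale: they compare arrays for 1 gene and give no level, so genes cannot be ranked by expression, and which genes lay near background is not known. The number of arrays limits the precision. The SD over all genes was 0.50 on SN saline array 1 and 0.59 on VTA 2 day array 1, against 0.25 to 0.42 on the other 16. The dopamine markers Th and Slc6a3 differed from saline by -1.29 ± 0.52 and -0.96 ± 0.37 (difference ± SE) in SN after 2 days of MPTP, and by -0.79 ± 0.52 and -0.46 ± 0.37 in VTA. Their adjusted p-values were 0.696 and 0.680 in SN, and 0.756 and 0.813 in VTA. Centred values cannot show whether the markers that define dopamine neurons are present, only how they vary. In such samples fewer cells of a type and less RNA per cell cannot be told apart.

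No lysosomal or autophagy gene passed an adjusted p of 0.05 in any of 14 comparisons or in the test of any difference among the 6 groups (limma, Benjamini-Hochberg over 18193 genes). In that last test 0 members had an unadjusted p under 0.05 either, where 6.13% of all genes did. Over all genes, calls were few as well, at 0% in SN after 2 days, 0.0055% in SN after 10 days, 0.011% in VTA after 2 days, 0.011% in VTA after 10 days and 0% between the regions in saline. They came to 0.0165% and 0.033% between 10 and 2 days in SN and VTA, 0% between the regions after MPTP and in the tests of their responses, and 0.0879% and 0.0385% after 2 and 10 days with the regions averaged. The smallest adjusted p of a member was 0.273, for Scarb2 after 2 days of MPTP with the regions averaged. The 95% intervals bound the difference of each gene's mean over its probe sets, gene by gene and without adjustment. They do not bound single probe sets, which ranged from -0.94 to 0.21 for Atg7 in VTA after 2 days. For all 37 members the interval of the MPTP difference in SN lay within 2-fold either way after 2 days and after 10 days. In VTA it did so for 35 members after 2 days, the exceptions being Ctsz and Npc1, and for 36 after 10 days, the exception being Npc1. Typically such an interval reached 0.36 to either side of the difference for the members and 0.40 for all genes (medians).

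**Figure D1:**
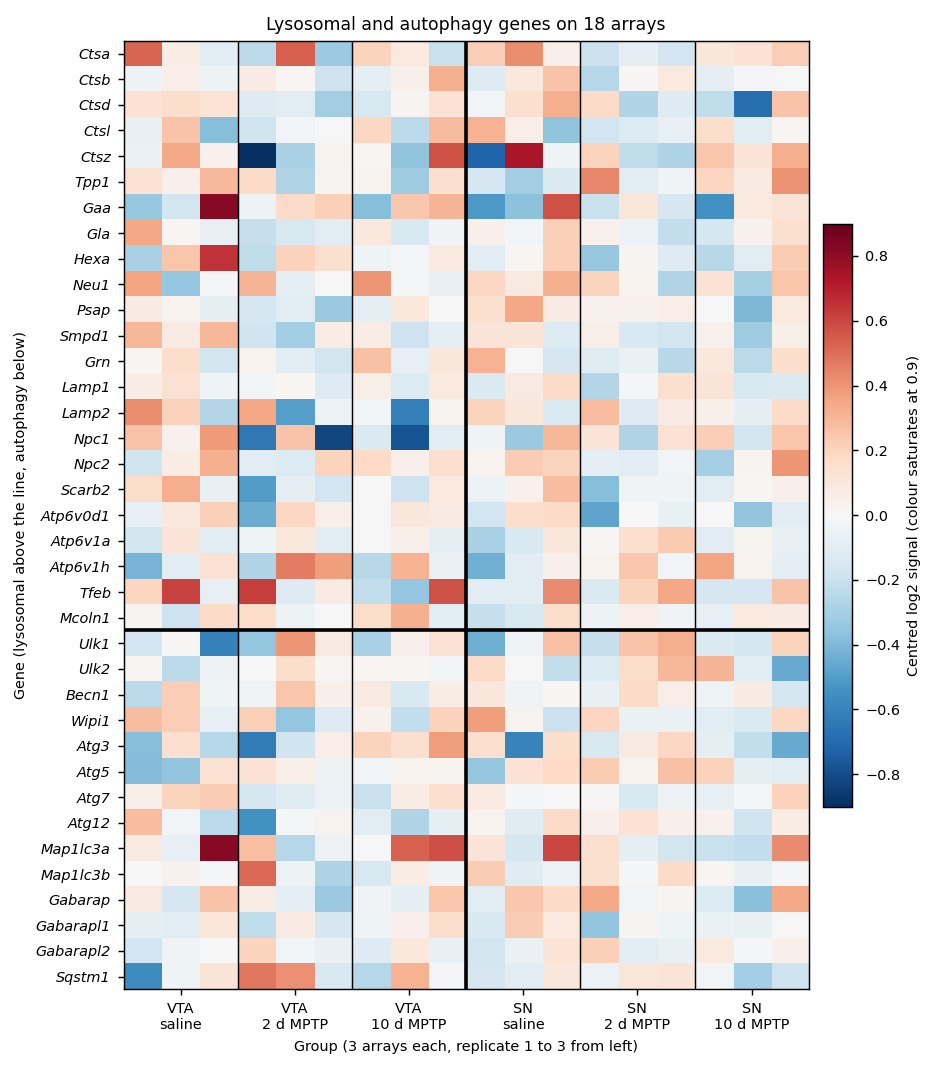
Centred log2 signal of the 37 measured genes (rows, lysosomal genes above the heavy line and autophagy genes below) on the 18 arrays (columns, 3 per group, VTA at the left and SN at the right); red is above and blue below the gene's median, with colour saturating at 0.9. No group forms a block of one colour across either list, and the strongest colours are single arrays, such as Ctsz at -0.93 on VTA 2 day array 1 and at 0.74 on SN saline array 2.

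**Figure D2:**
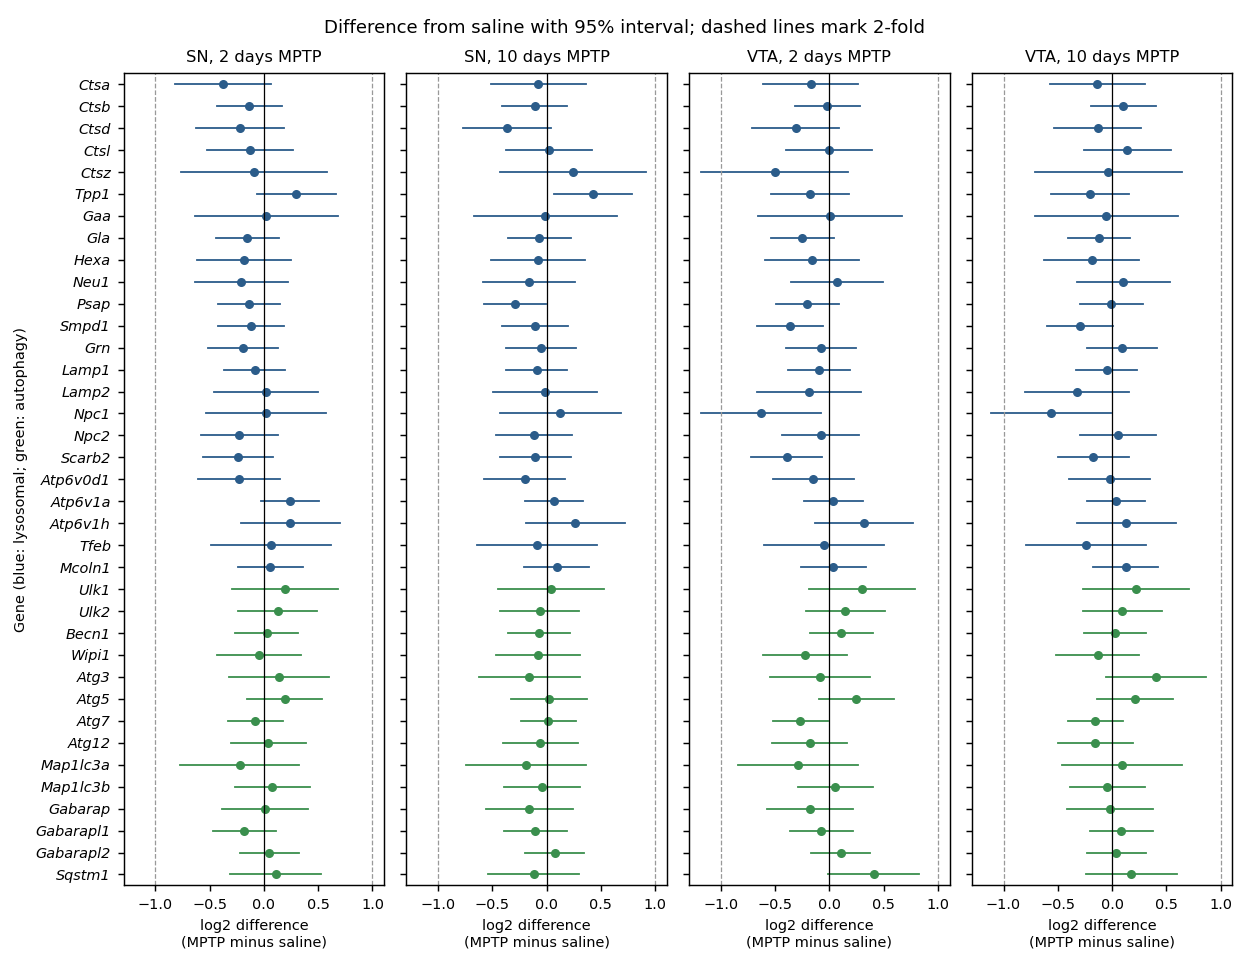
Log2 difference of MPTP minus saline for each gene (points) with its 95% interval (bars) in SN after 2 and 10 days and in VTA after 2 and 10 days; dashed lines mark a 2-fold difference. All points lie within the dashed lines, and most intervals include 0 (lysosomal genes in blue, autophagy genes in green).

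In VTA neurons after 2 days of MPTP, lysosomal genes lay lower than in saline as a list. The median difference of the 23 genes was -0.15, with 18 lower and 5 higher, against -0.0082 over all genes. The 14 autophagy genes were divided evenly, with a median of -0.0096, 7 higher and 7 lower. The mean of the lysosomal genes was -0.11, -0.014 and -0.065 on the 3 MPTP arrays, against 0.060, 0.10 and 0.088 on the 3 saline arrays. All 3 MPTP arrays lay below all 3 saline arrays. Leaving out 1 array at a time, the median ranged from -0.16 to -0.070, and it was nearest 0 without VTA 2 day array 2.

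By role, all 6 proteases and all 5 genes of the membrane and lipid export were lower in VTA after 2 days, while 2 of 3 proton pump subunits and 3 of 4 initiation genes were higher. Of the proteases, Ctsb and Ctsl were lower by little, with differences of -0.019 and -0.0037. In each, 2 of 3 MPTP arrays lay above the saline mean. Scarb2, the LIMP-2 membrane protein that carries glucocerebrosidase to lysosomes, was at -0.50, -0.081 and -0.17 after 2 days of MPTP, against 0.17, 0.32 and -0.070 in saline. All 3 MPTP arrays were below the lowest saline array, by a margin of 0.01, and the difference was -0.39 ± 0.15 (adjusted p = 0.549). Smpd1, the acid sphingomyelinase, was at -0.18, -0.30 and 0.067 after MPTP, against 0.30, 0.077 and 0.30 in saline. The groups again did not overlap, by a margin of 0.01, and the difference was -0.37 ± 0.14 (adjusted p = 0.549). Both probe sets of each gene were lower, at -0.47 and -0.32 for Scarb2 and -0.47 and -0.26 for Smpd1.

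Npc1, the membrane protein that exports cholesterol from lysosomes, had the lowest difference of any member in this comparison. It was at -0.64, 0.26 and -0.82 after 2 days of MPTP, against 0.26, 0.037 and 0.39 in saline. MPTP array 2 lay inside the saline range and the other 2 below it, and the difference of -0.63 ± 0.26 had a 95% interval of -1.19 to -0.074 (adjusted p = 0.579). Without VTA 2 day array 2 the difference was -0.96, and with each other array left out it was no nearer 0 than -0.42. Only 1 probe set measured this gene.

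Ctsd, the main aspartic protease of the lysosome, was at -0.12, -0.09 and -0.31 after MPTP, against 0.13, 0.16 and 0.13 in saline. Its 3 saline arrays lay within 0.03 of each other, all above the MPTP arrays. Psap, the precursor of the saposins that help enzymes reach membrane lipids, was at -0.15, -0.10 and -0.33 against 0.077, 0.030 and -0.090, without overlap by a margin of 0.01. Gla was at -0.21, -0.14 and -0.10 after MPTP against 0.35, 0.015 and -0.076 in saline, without overlap. The fitted differences were -0.31 ± 0.19, -0.20 ± 0.14 and -0.25 ± 0.14 for the 3 genes. That of Gla was -0.12 without VTA saline array 1, and that of Psap -0.13 without VTA 2 day array 3.

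Among the autophagy genes, Atg7, the E1-like enzyme that activates ATG8 and ATG12 proteins, was at -0.15, -0.11 and -0.055 after 2 days of MPTP, against 0.056, 0.20 and 0.23 in saline. The groups did not overlap and the difference was -0.27 ± 0.12 (adjusted p = 0.611). Its 4 probe sets disagreed, however, with differences from -0.94 to 0.21, 2 of them lower. Sqstm1, which encodes the cargo receptor p62, was at 0.47, 0.41 and -0.14 after MPTP, against -0.57, -0.037 and 0.12 in saline. Its groups overlapped, since MPTP array 3 lay below 2 saline arrays, and the difference was 0.41 ± 0.20 (adjusted p = 0.630), with probe sets from -0.021 to 0.84. It was 0.21 without VTA saline array 1.

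Without adjustment, 4 of the 37 members had a p under 0.05 in VTA after 2 days, Scarb2, Smpd1, Npc1 and Atg7, all lower; over all genes the share was 8.06%, with 3.92% lower. In 6 members the MPTP arrays all lay below the saline arrays (Scarb2, Smpd1, Ctsd, Psap, Gla and Atg7), where 4.92% of all genes did so. In 0 members they all lay above, where 5.1% of all genes did. Markers of other cells differed in the same samples. Oligodendrocyte markers were lower in 9 of 9 genes (median -0.39), with list means of -0.33 to -0.055 on MPTP arrays against 0.0068 to 0.48 on saline arrays. Precursor markers were lower in 6 of 7 genes (median -0.43), with list means of -0.22 to -0.051 against 0.17 to 0.28. Microglia and macrophage markers were lower in 11 of 15 (median -0.16), with list means of -0.31 to 0.014 against -0.021 to 0.11, and dopamine neuron markers in 12 of 13 (median -0.46), with -0.64 to 0.14 against -0.48 to 0.68. Ependyma and choroid plexus markers were higher in 6 of 7 (median 0.59), with list means of -0.17 to 1.24 against -0.84 to 0.085. The 5 GABA neuron markers were higher in 4 of 5 (median 0.084), with list means of -0.028 to 0.15 on MPTP arrays against -0.046 to -0.037 on saline arrays. Only the oligodendrocyte, precursor and GABA neuron lists had means that did not overlap, and the medians of the astrocyte, endothelium and erythrocyte lists lay between -0.12 and -0.0063. Which markers are at 0 cannot be read from centred values, and the part of these cells in the lysosomal values was not tested.

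**Figure D3:**
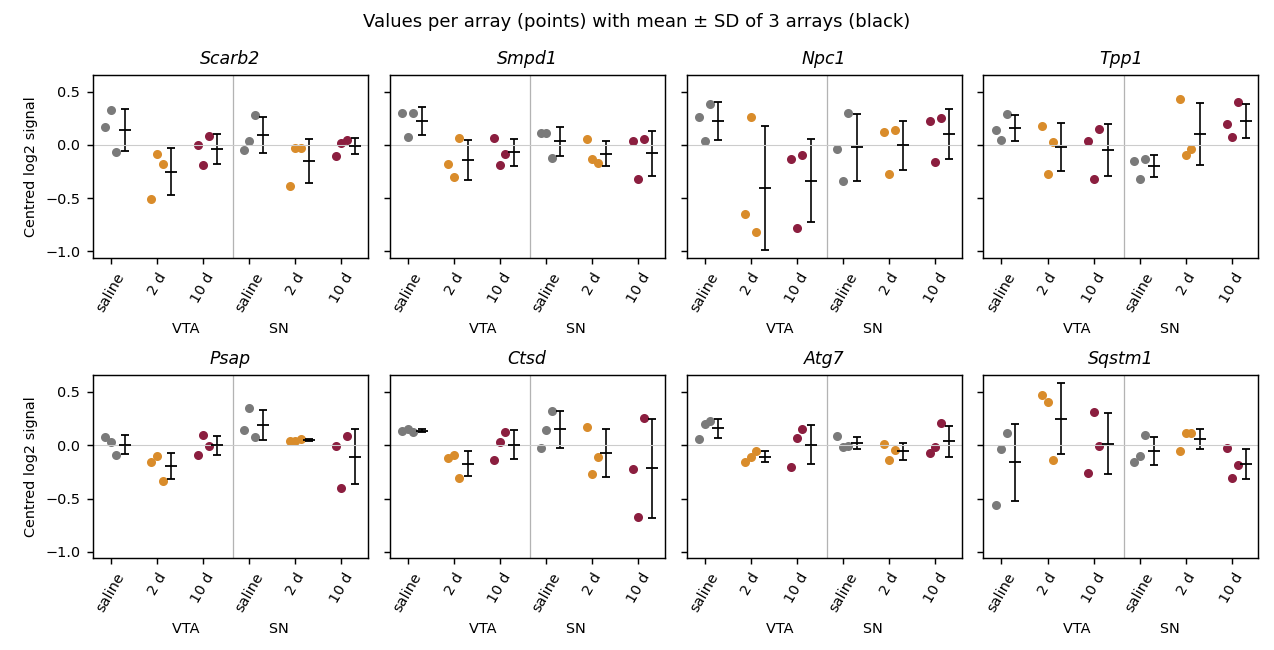
Centred log2 signal per array (points) with the mean ± SD of 3 arrays (black) for 8 named genes, in VTA (left of each panel) and SN (right), each as saline, 2 days and 10 days of MPTP. Scarb2, Smpd1, Psap, Ctsd and Atg7 have all VTA 2 day arrays below all VTA saline arrays, and Npc1 and Sqstm1 overlap there. After 10 days the mean difference of Tpp1 from saline has opposite sign in the regions, with overlap in VTA.

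In SN neurons after 2 days of MPTP the lysosomal genes had a similar median of -0.13, with 15 of 23 lower, against -0.027 over all genes. For the autophagy genes the median was 0.046, and 10 of 14 lay higher. The mean of the lysosomal genes was -0.047, -0.031 and -0.041 on the MPTP arrays, against -0.066, 0.048 and 0.13 on the saline arrays. The MPTP arrays were close together and lay inside the range of the saline arrays. For the 65 other lysosomal genes, given below, the MPTP list means lay under all saline list means in SN. Of the glycan and lipid hydrolases with their cofactors, 6 of 7 were lower, and of the proteases 5 of 6.

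Ctsa was at -0.19, -0.085 and -0.17 after 2 days of MPTP in SN, against 0.22, 0.42 and 0.044 in saline, without overlap. The difference was -0.38 ± 0.21 (adjusted p = 0.785), and its 2 probe sets gave -0.39 and -0.36. Atp6v1a, the catalytic subunit of the proton pump that acidifies the lysosome, was at 0.010, 0.14 and 0.24 against -0.29, -0.14 and 0.10 in saline. Its saline array 3 lay among the MPTP arrays, and the difference was 0.24 ± 0.13 (adjusted p = 0.774), or 0.15 without SN saline array 1.

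Of the autophagy genes in SN after 2 days, Gabarapl1, an ATG8 protein, was at -0.36, 0.027 and -0.037 after MPTP, against -0.14, 0.23 and 0.085 in saline, and differed by -0.18 ± 0.14 (adjusted p = 0.854). Atg5, which joins ATG12 to form part of the ligase for ATG8 proteins, was at 0.23, 0.032 and 0.26 after MPTP against -0.35, 0.13 and 0.18 in saline, and differed by 0.19 ± 0.16 (adjusted p = 0.888). Both overlapped, and the difference of Atg5 was -0.019 when its probe set of largest SD stood for the gene. Single arrays moved both, with Gabarapl1 at -0.066 without SN 2 day array 1 and Atg5 at 0.022 without SN saline array 1. In 0 of 37 members was the unadjusted p under 0.05, where 6.65% of all genes had one. The groups did not overlap in 4 members, with Psap, Npc2 and Ctsa lower and Tpp1 higher, against 14.5% of all genes. Npc2, the soluble partner of Npc1, was at -0.091, -0.10 and -0.024 after MPTP and 0.033, 0.23 and 0.20 in saline. Psap was at 0.040, 0.041 and 0.060 after MPTP and 0.14, 0.35 and 0.073 in saline, so that the gap between the groups was 0.01. Its difference of -0.14 ± 0.14 was -0.061 without SN saline array 2.

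Dopamine neuron markers were lower in SN after 2 days in 13 of 13 (median -0.96), with list means of -0.50 to -0.12 on MPTP arrays against 0.30 to 0.93 on saline arrays. Astrocyte markers were higher in 10 of 12 (median 0.26), with list means of 0.013 to 0.22 on MPTP arrays against -0.16 to -0.074 on saline arrays. Erythrocyte markers were lower in 3 of 3 (median -0.67), with list means of -0.20 to -0.091 on MPTP arrays against -0.033 to 0.73 on saline arrays. In these 3 lists the means on MPTP and saline arrays did not overlap. Oligodendrocyte markers were lower in 8 of 9 (median -0.21), with list means of -0.080 to 0.060 on MPTP arrays against -0.078 to 0.49 on saline arrays, and ependyma and choroid plexus markers were higher in 5 of 7 (median 0.19), with list means of -0.36 to 0.72 on MPTP arrays against -0.50 to -0.30 on saline arrays. The medians of the other 4 lists lay between -0.060 and -0.018. Their part in the values of the lysosomal and autophagy genes was not tested.

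**Figure D4:**
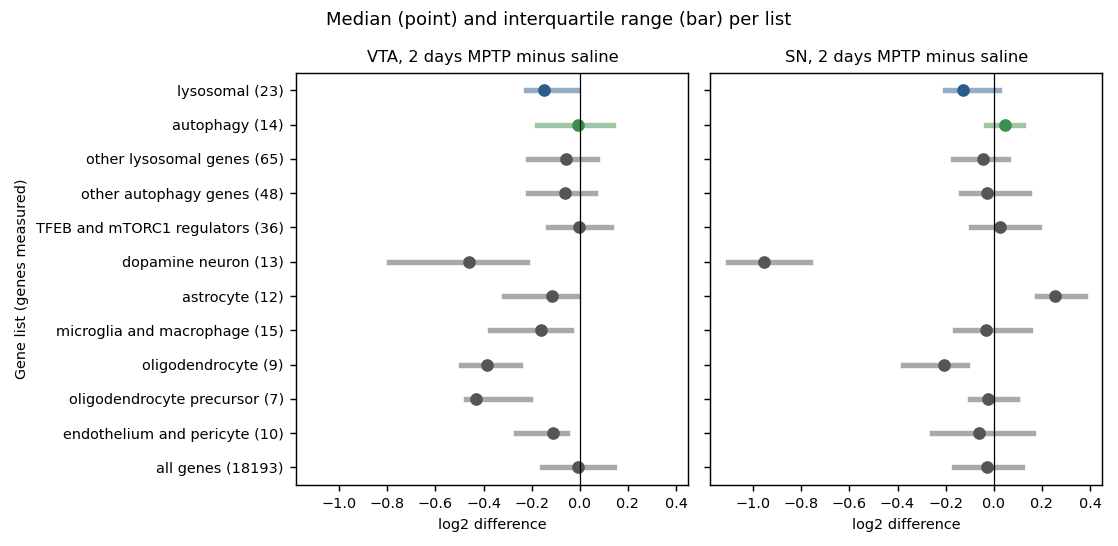
Median log2 difference (points) and interquartile range over the genes (bars) of MPTP minus saline after 2 days, in VTA (left) and SN (right), for the lysosomal and autophagy genes, further pathway lists, cell type markers and all genes; the number of genes measured is in brackets. The lysosomal medians of -0.15 and -0.13 lie closer to all genes than those of the dopamine neuron markers, at -0.46 and -0.96.

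In SN neurons after 10 days of MPTP both lists lay slightly lower than in saline. The medians were -0.077 for the lysosomal genes (16 of 23 lower) and -0.068 for the autophagy genes (10 of 14 lower), against -0.017 over all genes. All 7 hydrolases and cofactors were lower, with differences from -0.29 to -0.011. List means on the 3 MPTP arrays were -0.012, -0.10 and 0.13 for the lysosomal genes, which spans the saline values given above. Without SN 10 day array 2 the lysosomal median was -0.021.

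Tpp1, the tripeptidyl peptidase whose loss causes a neuronal ceroid lipofuscinosis, was at 0.19, 0.079 and 0.40 in SN after 10 days, against -0.15, -0.32 and -0.13 in saline. All 3 MPTP arrays lay above all saline arrays, the difference was 0.42 ± 0.17 (adjusted p = 0.887), and its 2 probe sets gave 0.38 and 0.46. After 2 days it was at 0.43, -0.09 and -0.034, also above all saline arrays, a difference of 0.30 ± 0.17 that was 0.13 without SN 2 day array 1. Psap was at -0.0035, -0.40 and 0.089 after 10 days, with 1 low array, and differed from saline by -0.29 ± 0.14 (adjusted p = 0.889). That difference was -0.14 without SN 10 day array 2.

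The ATG8 proteins Gabarap and Gabarapl1 had the smallest p-values of the autophagy genes in SN after 10 days. Gabarap was at -0.12, -0.38 and 0.34 after MPTP and -0.10, 0.25 and 0.17 in saline, a difference of -0.16 ± 0.19 (adjusted p = 0.981) that was 0.0030 without SN 10 day array 2. Gabarapl1 was at -0.060, -0.069 and -0.0033 after MPTP and differed by -0.10 ± 0.14 (adjusted p = 0.984), or -0.019 without SN saline array 2. Both overlapped with saline. Unadjusted, 2 of 37 members had a p under 0.05, Tpp1 higher and Psap lower, where 5.57% of all genes did, and 1 member, Tpp1, did not overlap, where 11.3% of all genes did not.

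Markers of the cell types varied in SN after 10 days as well. Dopamine neuron markers were lower in 13 of 13 (median -0.46), with list means of -0.16 to 0.25 on MPTP arrays against 0.30 to 0.93 on saline arrays. Ependyma and choroid plexus markers were higher in 5 of 7 (median 0.73), with list means of 0.35 to 0.92 on MPTP arrays against -0.50 to -0.30 on saline arrays. In both of these lists the means on MPTP and saline arrays did not overlap. Oligodendrocyte markers were lower in 8 of 9 (median -0.24), with list means of -0.25 to 0.037 on MPTP arrays against -0.078 to 0.49 on saline arrays, and the 3 erythrocyte markers in 3 of 3 (median -0.54), with list means of -0.37 to 0.42 on MPTP arrays against -0.033 to 0.73 on saline arrays. The medians of the other 5 lists lay between -0.16 for GABA neurons and 0.14 for astrocytes. Their part was not tested.

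In VTA neurons after 10 days the lysosomal median was -0.051, with 15 of 23 lower, and the autophagy median was 0.061, with 9 of 14 higher, against -0.0047 over all genes. List means on the MPTP arrays were 0.012, -0.091 and 0.10 for the lysosomal genes and -0.062, 0.047 and 0.12 for the autophagy genes, against -0.088, -0.012 and 0.027 for the autophagy genes in saline. The values of both lists overlapped with saline.

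Npc1 was at -0.13, -0.78 and -0.092 in VTA after 10 days, below all saline arrays, and differed by -0.56 ± 0.26 (adjusted p = 0.909). Without VTA 10 day array 2, the low one, the difference was -0.34. Smpd1 was at 0.067, -0.19 and -0.086, below all saline arrays, and differed by -0.29 ± 0.14 (adjusted p = 0.912). These 2 members were lower without overlap, against 4.53% of all genes, and Npc1 alone had an unadjusted p under 0.05, against 5.41%.

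Atg3, the E2-like enzyme that hands ATG8 proteins to lipid, was at 0.20, 0.14 and 0.38 in VTA after 10 days, against -0.38, 0.15 and -0.26 in saline. Saline array 2 lay just above the lowest MPTP array, and the difference was 0.40 ± 0.22 (adjusted p = 0.913). Its probe sets ranged from -0.10 to 0.91. Atg5 was at -0.024, 0.030 and 0.025 after MPTP, against -0.39, -0.36 and 0.14 in saline, a difference of 0.21 ± 0.16 (adjusted p = 0.957), with probe sets from -0.33 to 0.57. It was 0.12 without VTA saline array 1 and 0.38 without VTA saline array 3.

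In VTA after 10 days, oligodendrocyte precursor markers were lower in 5 of 7 (median -0.17), with list means of -0.11 to 0.050 on MPTP arrays against 0.17 to 0.28 on saline arrays, the only marker list whose means did not overlap. Dopamine neuron markers were lower in 12 of 13 (median -0.17), with list means of -0.35 to 0.52 on MPTP arrays against -0.48 to 0.68 on saline arrays, and oligodendrocyte markers in 8 of 9 (median -0.25), with list means of -0.18 to 0.16 on MPTP arrays against 0.0068 to 0.48 on saline arrays. Ependyma and choroid plexus markers were higher in 6 of 7 (median 0.58), with list means of -0.070 to 0.50 on MPTP arrays against -0.84 to 0.085 on saline arrays, and erythrocyte markers lower in 3 of 3 (median -0.30), with list means of -0.29 to -0.033 on MPTP arrays against -0.15 to 0.37 on saline arrays. The medians of the other 4 lists lay between -0.064 and 0.13. Their part was not tested.

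**Figure D5:**
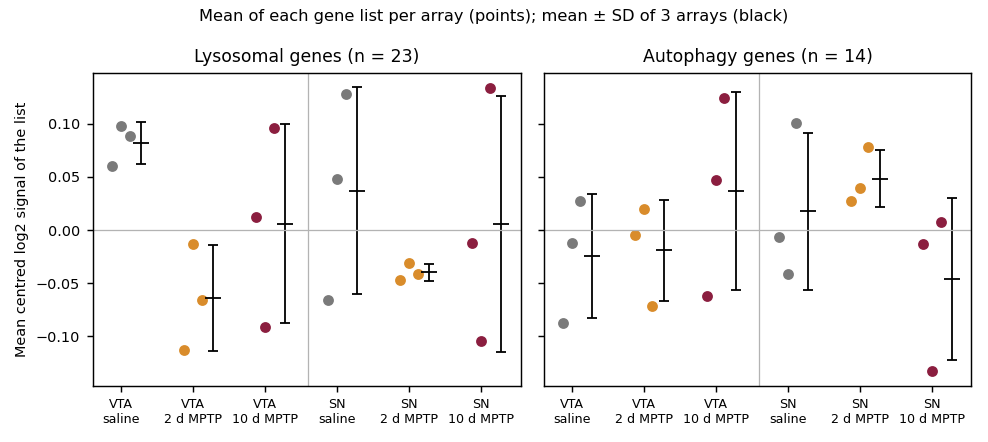
Mean centred log2 signal of the 23 lysosomal genes (left) and the 14 autophagy genes (right) on each array (points), with the mean ± SD of 3 arrays (black), for VTA and SN in saline and after 2 and 10 days of MPTP. The VTA saline arrays lie between 0.060 and 0.10 for the lysosomal genes, above the 3 VTA 2 day arrays, while all other MPTP groups overlap their saline arrays.

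Between the regions in saline, 0 members passed the threshold. The median VTA minus SN difference was 0.033 for the lysosomal genes and -0.048 for the autophagy genes, against -0.00019 over all genes. The 95% interval of a member's difference typically reached 0.36 to either side of it (median), and the bound farthest from 0 was at 0.87 in size. In all, 0 members had an unadjusted p under 0.05, where 4.36% of all genes did. Tpp1 was the member that did not overlap, at 0.14, 0.046 and 0.29 in VTA against -0.15, -0.32 and -0.13 in SN, with a difference of 0.36 ± 0.17 (adjusted p = 1.000); 7.31% of all genes did not overlap. The next smallest p-values belonged to Psap, at 0.077, 0.030 and -0.090 in VTA and 0.14, 0.35 and 0.073 in SN (-0.18 ± 0.14, adjusted p = 1.000), and, among the autophagy genes, to Atg7 and Atg5. Atg7 was at 0.056, 0.20 and 0.23 in VTA and 0.082, -0.019 and -0.0038 in SN, and Atg5 at -0.39, -0.36 and 0.14 in VTA and -0.35, 0.13 and 0.18 in SN. Their differences of 0.14 ± 0.12 and -0.19 ± 0.16 had adjusted p-values of 1.000 and 1.000. Leaving out 1 array, Psap was -0.10 without SN saline array 2, and Atg5 was -0.093 without SN saline array 3 and -0.36 without VTA saline array 3.

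Between the regions after MPTP, Atg12 and Psap were lower in VTA without overlap after 2 days, against 8.54% of all genes, and Atg3 was higher in VTA without overlap after 10 days, against 9%. Atg12, the ubiquitin-like protein joined to ATG5, was at -0.54, -0.020 and 0.032 in VTA and 0.047, 0.13 and 0.043 in SN after 2 days, a difference of -0.25 ± 0.16 that was -0.067 without VTA 2 day array 1. Atg3 was at 0.20, 0.14 and 0.38 in VTA and -0.090, -0.22 and -0.45 in SN after 10 days. The Atg3 difference was 0.49 ± 0.22 (adjusted p = 1.000). Its 2 probe sets gave 0.99 and -0.00092, so the difference rests on 1 of them. Atg3 was the only member with an unadjusted p under 0.05 in either comparison. Over all genes the share was 2.79% after 2 days and 2.99% after 10 days. With the 3 treatments averaged, the VTA minus SN medians were 0.014 for lysosomal and -0.0099 for autophagy genes, and 0 members had an unadjusted p under 0.05, where 4.2% of all genes did.

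The difference between the VTA response and the SN response to MPTP was tested as an interaction. After 2 days 0 members had an unadjusted p under 0.05, against 3.3% of all genes. After 10 days 1 did, Tpp1, against 3.17%. Tpp1 was at 0.034, -0.32 and 0.15 in VTA after 10 days, below the VTA saline mean on all 3 arrays, while all 3 SN arrays lay above the SN saline mean. Those VTA arrays overlapped their saline arrays. The response in VTA was -0.21 ± 0.17, that in SN 0.42 ± 0.17, and the interaction -0.63 ± 0.24 (adjusted p = 1.000). Intervals of these differences were wider than those of single regions, and 35 of 37 members after 2 days and 32 after 10 days had one within 2-fold.

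With the regions averaged, 2 days of MPTP gave a lysosomal median of -0.14, with 17 of 23 lower, and an autophagy median of 0.046, against -0.020 over all genes. These averages use the same arrays as the 2 regional comparisons and are no further evidence. Scarb2 differed by -0.32 ± 0.11 and Smpd1 by -0.24 ± 0.10 (adjusted p = 0.273 and 0.394), the only members with an unadjusted p under 0.05, where 11.1% of all genes had one and 0.0879% passed the adjusted threshold. In 0 members did all 6 arrays of 2 day mice lie apart from all 6 saline arrays, where 1.01% of all genes did. In SN, Scarb2 was at -0.39, -0.029 and -0.032 after 2 days and -0.050, 0.041 and 0.28 in saline, with 1 low MPTP array. Gla, Psap, Scarb2, Atg7 and Map1lc3a were below, and Atg5 above, the saline mean of their region on all 3 arrays of both regions after 2 days. These are 6 of 37 members, where 15.2% of all genes lay on one side in this way. After 10 days only Scarb2 was so placed, below it, against 11.9% of all genes. The 10 day medians with the regions averaged were -0.071 for lysosomal and -0.016 for autophagy genes, and 0 members had an unadjusted p under 0.05, where 7.74% of all genes did.

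Between 10 and 2 days of MPTP, the lysosomal median was 0.034 in SN and 0.072 in VTA, and the autophagy median -0.11 in SN and -0.0037 in VTA. In SN, Ctsa was higher without overlap after 10 days, at 0.10, 0.13 and 0.22 against -0.19, -0.085 and -0.17 after 2 days, where 11.1% of all genes did not overlap; 0 members had an unadjusted p under 0.05 there, against 3.02% of all genes. In VTA, Psap and Atg3 were higher without overlap, where 10.2% of all genes did not overlap. Psap was at -0.090, 0.093 and -0.0052 after 10 days against -0.15, -0.10 and -0.33 after 2 days, a difference of 0.20 ± 0.14 that was 0.13 without VTA 2 day array 3. Atg3 was at 0.20, 0.14 and 0.38 after 10 days against -0.63, -0.18 and 0.062 after 2 days (0.49 ± 0.22, adjusted p = 0.771), with the only unadjusted p under 0.05 among the members, where 6.34% of all genes had one. The Atg3 difference was 0.30 without VTA 2 day array 1. Its 2 probe sets disagreed in sign, at 1.09 and -0.11, so the difference rests on 1 of them.

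The remaining members are described by role. Among the proteases, Ctsb was between -0.26 and 0.32 on all 18 arrays, and Ctsl between -0.38 and 0.31; both are cysteine cathepsins. Ctsz, a carboxypeptidase, was the widest member, with a residual SD of 0.43 and saline values in SN of -0.72, 0.74 and -0.039. Among the hydrolases, Gaa, which digests glycogen, was nearly as wide (residual SD 0.42), at -0.34, -0.16 and 0.82 in VTA and -0.52, -0.37 and 0.57 in SN of saline mice. Array 3 was the high one in both regions. Hexa, a subunit of the hexosaminidase that degrades ganglioside, averaged 0.040 ± 0.24 in VTA after 2 days and 0.20 ± 0.47 in saline (SD, n = 3 each). The sialidase Neu1 averaged -0.013 ± 0.24 in SN after 2 days and 0.20 ± 0.12 in saline, and Grn, whose product progranulin supports lysosomal enzymes, -0.14 ± 0.10 and 0.055 ± 0.24.

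Of the abundant membrane glycoproteins, Lamp1 stayed between -0.26 and 0.17 on all arrays and Lamp2, which also serves chaperone-mediated autophagy, between -0.62 and 0.42, both ends in VTA. The pump subunits Atp6v0d1 and Atp6v1h averaged -0.18 ± 0.26 and 0.082 ± 0.14 in SN after 2 days, against 0.052 ± 0.20 and -0.16 ± 0.25 in saline. Tfeb itself averaged 0.24 ± 0.34 in saline, 0.19 ± 0.38 after 2 days and 0.00068 ± 0.50 after 10 days in VTA, and 0.076 ± 0.30, 0.14 ± 0.24 and -0.015 ± 0.24 in the same order in SN. Those SDs exceed the distances between the means. Mcoln1, the lysosomal calcium channel, stayed between -0.21 and 0.32.

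Of the initiation genes, the kinase gene Ulk1 averaged 0.042 ± 0.37 in VTA after 2 days and -0.26 ± 0.32 in saline, and Ulk2 0.057 ± 0.089 and -0.089 ± 0.13. Becn1, which encodes Beclin, stayed between -0.24 and 0.25 on all 18 arrays, and Wipi1, which binds the lipid made by the Beclin complex, between -0.35 and 0.38. Of the ATG8 family, Map1lc3a was at 0.27, -0.26 and -0.050 in VTA after 2 days and 0.079, -0.073 and 0.82 in saline. Saline array 3 was the high one, as it was in SN. Map1lc3b averaged 0.064 ± 0.41 in VTA after 2 days and 0.0080 ± 0.028 in saline, and Gabarapl2 0.037 ± 0.14 and -0.067 ± 0.10. The median residual SD was 0.21 for lysosomal and 0.20 for autophagy genes, against 0.24 for all genes.

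Probe sets of 1 gene often disagreed in sign. Of the 30 members with several probe sets, all lay on one side in 15 in VTA after 2 days, 13 in VTA after 10 days, 11 in SN after 2 days and 13 in SN after 10 days. The other 7 members, Npc1, Ctsd and Gabarap among them, rest on 1 probe set.

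The 7 members with TCACGTGA in the promoter window were set beside the 24 without it. The sets differ in make-up, since 6 of 20 lysosomal and 1 of 11 autophagy genes with a window hold it. The lysosomal list had the lower median in both regions after 2 days. Whether the sets differ within each list was not tested. After 2 days of MPTP their median difference was -0.15 in VTA (2 of 7 higher), against -0.080 for the others (8 of 24 higher). In SN it was -0.15 (3 of 7 higher), against -0.062 (11 of 24 higher). Values of both sets overlapped in range: in VTA the 7 lay between -0.31 (Ctsd) and 0.037 (Atp6v1a), and the 24 between -0.50 and 0.41.

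Further genes of the same pathways gave 0 calls as well in these 4 MPTP comparisons. Measured were 65 of 71 other lysosomal genes, 48 of 50 other autophagy genes and 36 of 38 regulators of TFEB and mTORC1, the kinase complex that keeps TFEB out of the nucleus. Without adjustment, 1, 2 and 3 of them had a p under 0.05 in VTA after 2 days, and 5, 1 and 2 in SN. Over all genes the shares were 8.06% in VTA and 6.65% in SN. Of the other lysosomal genes, 40 were lower in VTA (median -0.057) and 41 in SN (median -0.045) after 2 days, and 36 and 40 after 10 days. Their list means after 2 days were -0.069, -0.070 and -0.035 in VTA, against 0.021, 0.042 and 0.023 in saline. In SN they were -0.016, -0.042 and -0.021, against 0.00034, 0.074 and 0.029 in saline. The MPTP and saline means of this list thus did not overlap in either region after 2 days, and overlapped in both after 10 days. Of the other autophagy genes, 30 were lower in VTA (median -0.061) and 28 in SN (median -0.027) after 2 days. Of the regulators, 17 were higher in VTA and 22 in SN after 2 days, with medians of -0.0045 and 0.028. After 2 days the list means of the other autophagy genes overlapped saline in both regions. Those of the regulators overlapped in VTA. In SN they lay above saline, at 0.0033 to 0.031 against -0.057 to -0.011.

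Vps41, a subunit of the HOPS tether that joins autophagosomes and endosomes to lysosomes, had the smallest p-values of these lists after 2 days and is named for that. It was at -0.71, -0.24 and -0.92 in VTA after 2 days of MPTP, against 0.17, 0.010 and -0.15 in saline. In SN it was at -0.43, -0.18 and -0.72 after MPTP, against 0.14, 0.23 and 0.23 in saline. All 2 day arrays lay below all saline arrays within each region, and the differences were -0.64 ± 0.17 in VTA and -0.64 ± 0.17 in SN (adjusted p = 0.376 and 0.564). Of all genes, 4.92% lay lower without overlap in VTA and 14.5% did not overlap in SN in either direction. With the regions averaged it was -0.64 ± 0.12, with an adjusted p of 0.0768 that missed the threshold, and all 6 arrays of 2 day mice lay below all 6 saline arrays, where 1.01% of all genes did not overlap. That p ranged from 0.0267, without VTA 2 day array 2, to 0.201 over the alternative settings, and it was 0.0498 with array weights. After 10 days it was at 0.25, -0.14 and 0.16 in VTA and 0.20, 0.10 and 0.070 in SN, overlapping the saline values in both regions. Rragd, a GTPase that brings mTORC1 to the lysosome and a known TFEB target, was at 0.090, 0.37 and 0.43 in SN after 2 days, against -0.41, -0.066 and -0.39 in saline, a difference of 0.59 ± 0.19 (adjusted p = 0.646). It was likewise one of the 14.5% of genes without overlap there.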

How the data were processed

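Dopamine neurons of 2 midbrain regions were profiled on 18 arrays. The authors deposited log2 values that were RMA normalised in Agilent GeneSpring GX 10.0, per the series design text; the deposited table has each probe set centred on its median (largest row median 5e-07), a step that no label states. Of 45101 probe sets, 64 controls were left out, 34945 have 1 gene symbol in the platform annotation, 932 several and 9160 none. Probe sets with 1 symbol were averaged per gene, without a filter, giving 18193 genes. The members and gene lists were chosen with earlier results of these data known.

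Groups were compared in 1 limma model (version 3.58.1, R 4.3.3) that estimates 6 group means from every array and leaves 12 residual degrees of freedom, and p-values (two-sided) were adjusted by Benjamini-Hochberg over 18193 genes at a threshold of 0.05. Named in each comparison of MPTP with saline, and of VTA with SN in saline, are the members past the threshold, or otherwise the 2 lysosomal and 2 autophagy genes of smallest p; members whose groups do not overlap, and others given by role, were added after their values were seen. From each further pathway list at most 2 genes are named in a comparison. Lists are described by counts and medians, without a test.

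Replicate numbers were checked by correlating the deviations of same-numbered SN and VTA arrays from their group means. These were 0.32, 0.28 and 0.40 after 10 days, all over 0.1, but 0.22, 0.23 and 0.050 after 2 days and 0.064, 0.20 and 0.22 in saline. The median of these 9 pairs was 0.22, with 7 over 0.1. For the 18 SN and VTA pairs of other numbers within a treatment it was -0.10, with 1 over 0.1. Deviations of same-numbered arrays were thus more alike than those of other pairs. Whether same-numbered arrays share mice cannot be read from these values. The main fit treats all arrays as unpaired. Alternatives were the probe set of largest SD, single probe sets, only the groups compared, recentred arrays, repeated quantile normalisation, array weights, replicate blocks, and leaving out 1 array or the 2 arrays of widest spread. A filter on low values and another background correction were not run, because the values hold no level and scanner files were not used here.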

Additional observations from a re-analysis of the deposited data

Results flagged for a closer look

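After 10 days of MPTP, Tpp1 lay on opposite sides of its saline mean in the regions. All 3 VTA arrays lay below the VTA saline mean and all 3 SN arrays above the SN saline mean. The VTA groups overlapped, since 10 day array 3, at 0.15, lay above saline arrays 1 and 2. The share of all genes placed in this way was not counted. The difference of the responses was -0.63 ± 0.24 on the log2 scale (VTA minus SN, SE). That difference was tested as an interaction and did not pass the threshold (limma, adjusted p = 1.00), with values of -0.72 to -0.49 when 1 array was left out. The saline groups themselves did not overlap, at 0.14, 0.046 and 0.29 in VTA and -0.15, -0.32 and -0.13 in SN.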

How the results depend on the processing

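The count of members past the adjusted threshold was 0 in each of the 378 counts made under 10 alternatives and 18 fits that leave out 1 array. These cover all 14 comparisons, except that the fit of only the groups compared is the same as the full one with the treatments averaged and was not repeated there, and that its form with the replicate block was run for VTA against SN after 10 days alone; the lowest adjusted p of a named member difference in any of them was 0.210. Of 728 list medians, 711 moved by less than the SD between replicates. Many of these medians could not move. Leaving out an array of a group outside the comparison leaves its differences unchanged. So do the fit of only the groups compared and the replicate block. The count is therefore no measure of robustness. With the probe set of largest SD standing for each gene, the autophagy median was -0.026 in SN and -0.074 in VTA after 2 days, 0.084 between 10 and 2 days in VTA, -0.18 between VTA and SN after 2 days and -0.10 for the difference of the 2 day responses, and Atg5 reversed to -0.019 in SN after 2 days and -0.33 in VTA after 10 days; the cause was not tested. The lysosomal median in VTA after 2 days was -0.098 with repeated quantile normalisation and -0.10 without the 2 arrays of widest spread, and its VTA minus SN median after 2 days was -0.019 with array weights and -0.027 without those arrays. Leaving out 1 array, the lysosomal median ranged from -0.16 to -0.070 in VTA after 2 days, -0.027 to 0.048 between VTA and SN after 2 days, 0.0063 to 0.12 between 10 and 2 days in SN, -0.12 to 0.0025 for the difference of the 2 day responses and -0.10 to 0.043 for that of the 10 day responses. The autophagy median ranged from -0.033 to 0.072 in VTA after 2 days and from 0.080 to 0.17 for the difference of the 10 day responses. Gabarap in SN after 10 days ranged from -0.36 to 0.0030. Every replicate number occurs in every group, so a replicate block cannot change a group difference, only its error. With the block, fixed or random (consensus correlation 0.187), the lysosomal median in VTA after 2 days therefore stayed at -0.15. The block changed no call. Nor did the fit of only the VTA and SN groups after 10 days with the replicate block, added after seeing the data. The lysosomal median was 0.051 there. With 3 arrays a group, a difference smaller than the reach of its stated interval to either side could not pass the threshold. The intervals are not adjusted for the number of genes, so larger differences could miss it too. Npc1 in VTA after 2 days, at -0.63, and Tpp1 in SN after 10 days, at 0.42, were such cases. With centred values, genes near background are not known.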
